A study of Mus musculus with 9 samples.

Results

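The genes described here encode the MHC class I molecule and the machinery that supplies it with peptide: the light chain gene B2m, the heavy chain genes H2-K1, H2-D1, H2-Q4 and H2-T23, the transporter genes Tap1 and Tap2, the immunoproteasome genes Psmb8 and Psmb9, and the regulator gene Nlrc5. They were taken by gene name from the deposited comparison tables, and all 10 were found among the 4277 genes that either table lists. RNA was sequenced from the thalamus of wild-type mice (C57/BL per the series' design text) on day 7. The groups are called sham, stroke and mmpp, with 3 samples in each. Stroke was made by photothrombosis, where light excites a dye in the blood and vessels clot, and a melanin nanozyme, meaning melanin particles that act like an enzyme, was also injected in the study. The labels used here do not spell out mmpp, give no age or sex, do not describe the sham procedure, and do not say which groups were injected or how many animals a sample holds. The files used here hold the authors' mean TPM (a share of all transcripts, scaled for gene length) of each group and no value per library. The spread between libraries and their depth are therefore unknown here, and every mean below is the authors' value, without an SD of its own.

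MHC class I molecules show fragments of a cell's own proteins at its surface to CD8+ T cells and natural killer cells. Proteasomes cut the proteins, the TAP transporter carries the peptides into the endoplasmic reticulum, and chaperones there load them onto a heavy chain paired with beta-2 microglobulin, the product of B2m. In the healthy brain most neurons and glia show little class I, and interferons raise its expression in many cell types. NLRC5 is a transcriptional coactivator of class I genes, as CIITA is of class II genes. It is known to act through promoter elements named X and Y, while interferon regulatory factors bind an element called ISRE and NF-kappa B binds the kappa B element.

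RefSeq promoter windows on GRCm38.p6 were found for 8 of the genes, and those of 6 are printed because they show which of these elements the genes share. Each line gives the 250 bases before the annotated start on the gene's own strand. Capitals mark matches, on either strand, to the ISRE (GAAA, then 2 bases of any kind, then GAAA) or its shorter form GAANNGAAA, to the kappa B letters GGGGATT followed by any base and CCC, to the X2 box core TGACG and to the Y box ATTGG. H2-K1 lies at chr17:34000334-34000583 (minus strand; of its 2 windows the one further downstream is shown), H2-D1 at chr17:35262844-35263093 (plus strand), H2-Q4 at chr17:35379367-35379616 (plus strand), H2-T23 at chr17:36032702-36032951 (minus strand), B2m at chr2:122147437-122147686 (plus strand) and Tap1 at chr17:34187306-34187555 (plus strand).
H2-K1: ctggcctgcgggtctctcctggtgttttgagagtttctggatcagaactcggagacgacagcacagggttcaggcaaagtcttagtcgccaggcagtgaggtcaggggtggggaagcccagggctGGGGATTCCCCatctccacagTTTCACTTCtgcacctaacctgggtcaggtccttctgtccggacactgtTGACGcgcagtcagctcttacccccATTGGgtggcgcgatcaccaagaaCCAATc
H2-D1: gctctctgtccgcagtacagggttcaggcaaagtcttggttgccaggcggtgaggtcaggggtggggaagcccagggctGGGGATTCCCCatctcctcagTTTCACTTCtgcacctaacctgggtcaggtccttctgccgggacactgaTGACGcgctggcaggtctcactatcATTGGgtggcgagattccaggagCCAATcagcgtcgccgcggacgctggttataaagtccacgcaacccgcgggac
H2-Q4: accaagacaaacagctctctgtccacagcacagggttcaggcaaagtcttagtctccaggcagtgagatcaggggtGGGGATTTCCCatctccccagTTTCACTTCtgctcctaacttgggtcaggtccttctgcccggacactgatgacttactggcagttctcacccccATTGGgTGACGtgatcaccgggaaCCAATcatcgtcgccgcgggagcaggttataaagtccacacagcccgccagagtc
H2-T23: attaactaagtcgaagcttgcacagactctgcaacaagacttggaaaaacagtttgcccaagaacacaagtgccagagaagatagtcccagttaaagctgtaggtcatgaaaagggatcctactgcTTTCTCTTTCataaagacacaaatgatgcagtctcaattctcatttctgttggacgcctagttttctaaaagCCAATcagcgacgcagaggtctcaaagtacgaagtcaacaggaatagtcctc
B2m: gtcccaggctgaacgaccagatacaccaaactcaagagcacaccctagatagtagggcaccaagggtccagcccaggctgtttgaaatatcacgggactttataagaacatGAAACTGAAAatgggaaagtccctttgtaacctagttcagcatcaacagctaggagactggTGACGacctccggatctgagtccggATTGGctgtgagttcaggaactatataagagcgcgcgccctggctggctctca
Tap1: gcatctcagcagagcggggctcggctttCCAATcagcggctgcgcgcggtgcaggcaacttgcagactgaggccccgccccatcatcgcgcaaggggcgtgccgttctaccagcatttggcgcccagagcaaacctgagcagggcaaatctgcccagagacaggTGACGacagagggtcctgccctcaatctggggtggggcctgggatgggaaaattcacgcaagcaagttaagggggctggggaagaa

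The heavy chain genes H2-K1, H2-D1 and H2-Q4 each held the kappa B letters and, with its first base 21 bases further on, the shorter ISRE on the minus strand. These kappa B letters occurred in 24 of 32851 mouse promoter windows (0.0731%), of which 5 belonged to the class I genes H2-D1, H2-Q4, H2-Q6 and H2-K1, the last with 2 windows, and the shorter ISRE occurred in 6.31%. Both sets of letters were chosen after these sequences had been read, so their rarity elsewhere is a description. The full ISRE was present in B2m and H2-T23, against 2.98% of all windows. Its spacing differs from that of the shorter form, so neither contains the other. The X2 core was followed by a Y box with 25 bases between their first bases in B2m, H2-K1 and H2-D1, an arrangement, also chosen after reading, that 30 windows held (0.0913%). Singly, the X2 core was in 6 of the 8 windows and in 17.8% of all windows, and the Y box was in 7 of the 8 and in 33.8% of all. The GAS element of interferon-responsive genes was searched as TTCNNNGAA and matched in Psmb8, against 7.02% of windows. A looser kappa B, GGG and CC with 5 bases of any kind between, was in 6 of the 8 windows and in 45.8% of all, and it overlaps the longer kappa B in the heavy chain genes. The Tap1 and Psmb9 genes are transcribed away from each other, and their 300-base RefSeq windows share 275 bases, so their matches are the same letters read from either end. A match is not evidence of binding, and no binding was measured.

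**Figure D1:**
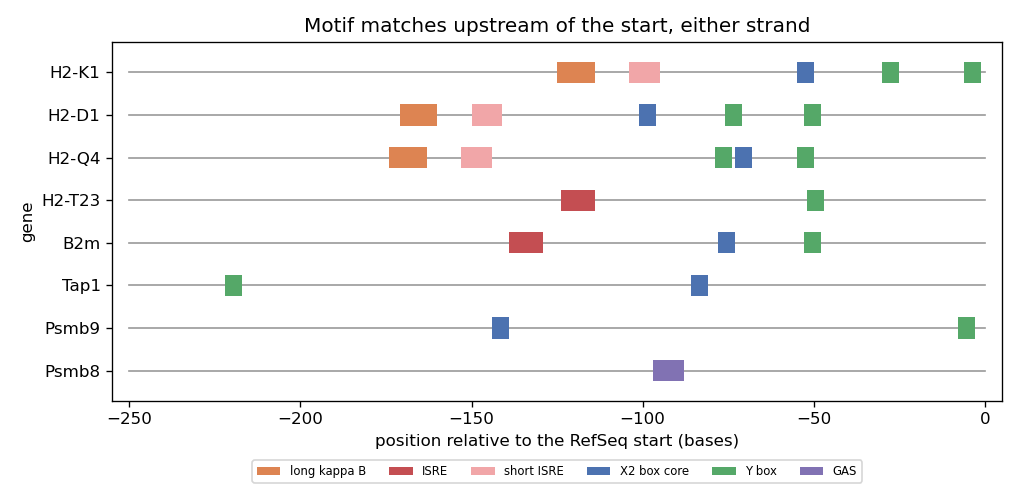
Motif matches in the 250 bases before the RefSeq start of 8 class I and peptide loading genes, on either strand; the x axis is the position relative to the start in bases, and the looser kappa B is left out. H2-K1, H2-D1 and H2-Q4 share the order of kappa B and short ISRE 21 bases apart, and H2-K1, H2-D1 and B2m share an X2 core 25 bases before a Y box.

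All 10 genes rose after stroke. The authors' deposited table gave each a q-value under 0.05, the largest being 0.000248 for Tap2. Of 20804 genes that the authors adjusted, 9.67% were listed as higher with a q-value under 0.05, and 3.37% as lower. The folds ran from 2.66 for Tap2 to 11.7 for B2m, with a median log2 fold change of 2.67 over the 10 genes, from the authors' deposited table. The median was 2.34 over all 2469 genes that the authors' deposited table lists as higher, and 2.44 over the 2012 of them with a q-value under 0.05. The genes were proposed with earlier results of these data known, so their count is a description. In bulk tissue, a change in the number of cells of a type and a change in RNA per cell cannot be told apart, which holds for every result below.

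**Figure D2:**
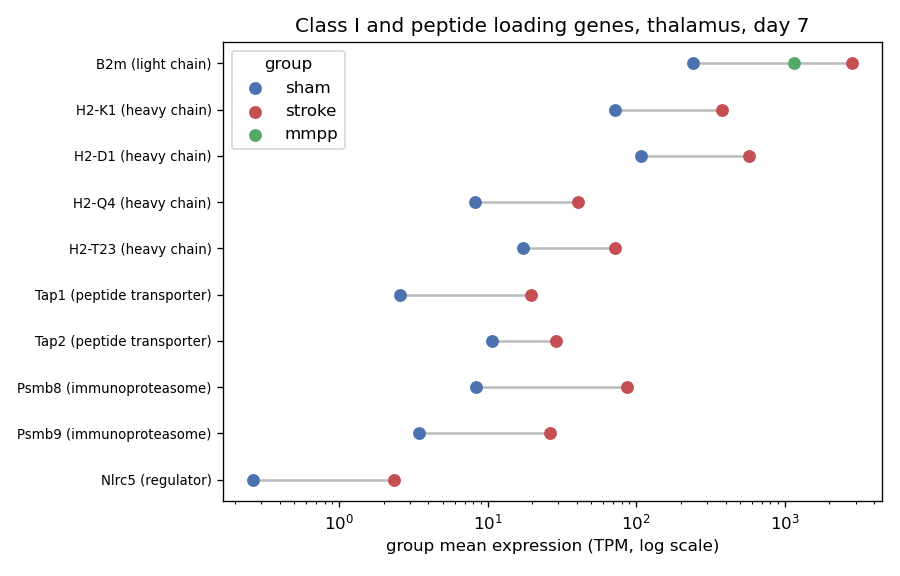
Group mean expression of the 10 genes in TPM (x axis, log scale), with sham in blue, stroke in red and mmpp in green; the line joins sham and stroke, and no spread is shown because none is given. Every gene lies higher in stroke than in sham, and only B2m has an mmpp value, at 1149 TPM.

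The light chain gene was the most abundant of the 10 and had the largest fold. B2m (ENSMUSG00000060802) had a mean of 241.6 TPM in sham and 2837 TPM in stroke, per the authors' deposited table, 11.7-fold higher (log2 fold change 3.55, q = 2.76e-08). Among the 4071 genes listed for this comparison it had the 11th highest stroke mean, against the 154th highest sham mean, in the authors' deposited table. B2m took 51.1% of the summed TPM of the 10 genes in sham and 69.7% in stroke, computed from the authors' deposited means. Together the 10 genes made up 0.0473% of total TPM in sham and 0.407% in stroke, from the same authors' deposited means.

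The classical heavy chain genes, whose products present peptide to CD8+ T cells, moved by nearly equal folds. H2-D1 (ENSMUSG00000073411) was at 108.4 TPM in sham and 577.6 TPM in stroke, per the authors' deposited table, 5.33-fold higher (q = 1.08e-10). H2-K1 (ENSMUSG00000061232) was at 72.01 TPM in sham and 380.3 TPM in stroke, per the authors' deposited table, 5.28-fold higher (q = 1.38e-10). The ratio of H2-D1 to H2-K1 was 1.51 in sham and 1.52 in stroke, computed from the authors' deposited means. The other heavy chains were less abundant. H2-T23 (ENSMUSG00000067212), which encodes the Qa-1 molecule seen by the CD94 receptor of natural killer cells, was at 17.3 TPM in sham and 71.6 TPM in stroke, per the authors' deposited table (4.14-fold, q = 7.29e-07). H2-Q4 (ENSMUSG00000035929), of the Qa region, was at 8.19 TPM in sham and 40.9 TPM in stroke, per the authors' deposited table (4.99-fold, q = 2.45e-06). H2-K1 and H2-D1 made up 87.6% of the summed TPM of these 4 heavy chain genes in sham and 89.5% in stroke, computed from the authors' deposited means. The level of B2m per summed heavy chain level was 1.17 in sham and 2.65 in stroke on the same TPM scale of the authors' deposited means, and this difference of ratios could not be tested without values per library.

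Near-identical copies limit what can be said of single heavy chains. In GENCODE M21 transcripts on GRCm38, 8.79% of the 50-base windows of the longest H2-K1 transcript occurred exactly in transcripts of other genes, as did 14.3% for H2-D1, 24.3% for H2-Q4 and 28.8% for H2-T23. With 100-base windows the shares were 0% for H2-K1, 4.64% for H2-D1, 2.66% for H2-Q4 and 7.28% for H2-T23. At 50 bases B2m, Psmb8, Psmb9 and Nlrc5 had no shared window, and Tap1 and Tap2 shared under 1% (0.861% and 0.737%), each only with the other. The read length and the treatment of reads that match several genes are not given in the sources used here. Exons of Tap1 and Psmb9 overlap on opposite strands over 212 bases. Those of H2-Q4, Tap2, Psmb8 and Nlrc5 are overlapped by other annotated genes on the opposite strand. The largest overlaps took 19.1% of the exon bases of H2-Q4 (by Gm11131), 14.7% of Psmb8, 14.1% of Tap2 and 0.918% of Nlrc5. Gm11131 itself rose after stroke, with a log2 fold change of 1.87 (q = 0.0323, authors' deposited table). No strand setting is given, so reads of such partners cannot be told apart.

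The TAP transporter genes rose by unequal folds, and that of Tap2 was the smallest of the 10. Tap1 (ENSMUSG00000037321) was at 2.56 TPM in sham and 19.5 TPM in stroke, per the authors' deposited table, 7.61-fold higher (q = 3.26e-17). By p-value it was the 152nd of the 20804 genes adjusted, the highest place of the 10 genes in the authors' deposited table. Tap2 (ENSMUSG00000024339) was at 10.8 TPM in sham and 28.7 TPM in stroke, per the authors' deposited table, 2.66-fold higher (q = 0.000248, place 1213 by p-value). Their products work as a pair, and the level of Tap2 was 4.204 times that of Tap1 in sham and 1.47 times in stroke, computed from the authors' deposited means.

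The immunoproteasome genes replace catalytic subunits of the standard proteasome and change which peptides it cuts. Psmb8 (ENSMUSG00000024338) was at 8.42 TPM in sham and 86.4 TPM in stroke, per the authors' deposited table, 10.3-fold higher (q = 1.94e-16). Psmb9 (ENSMUSG00000096727) was at 3.45 TPM in sham and 26.2 TPM in stroke, per the authors' deposited table, 7.60-fold higher (q = 4.52e-13). Psmb10, which encodes the remaining immunoproteasome subunit, was not listed in the authors' deposited table, nor were the standard counterparts Psmb5, Psmb6 and Psmb7. Of 20 further proteasome genes 1 was listed, the activator gene Psme2b, at 0.344 TPM in sham and 1.03 TPM in stroke (q = 0.178, authors' deposited table). To be listed, a gene needed an unadjusted p below 0.05 and a log2 fold change of 1 or more in size. The other 19, Psmb10 among them, can have failed on p, on fold or on being tested at all, and their absence does not show that they did not change. The list of 20 does not cover every proteasome gene. It leaves out the subunit gene Psma8, which rose, with a log2 fold change of 2.69 (q = 0.000323, authors' deposited table).

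Nlrc5 (ENSMUSG00000074151), the class I coactivator gene, was the least abundant of the 10. It was at 0.264 TPM in sham and 2.36 TPM in stroke, per the authors' deposited table, 8.92-fold higher (q = 9.15e-15). Its sham mean is near 0, so the size of the fold is uncertain: with 1 TPM added to both authors' deposited means its log2 fold change was 1.41 in place of 3.16. The order of the genes by level was B2m, H2-D1, H2-K1, H2-T23, Tap2, Psmb8, H2-Q4, Psmb9, Tap1 and Nlrc5 in sham. In stroke it was B2m, H2-D1, H2-K1, Psmb8, H2-T23, H2-Q4, Tap2, Psmb9, Tap1 and Nlrc5, both by the authors' deposited mean TPM. Psmb8 moved from the 6th place to the 4th and Tap2 from the 5th to the 7th. Whether neighbours in these orders differ beyond their spread is unknown, since no spread is given.

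Of 29 further class I heavy chain genes 10 were listed, all higher after stroke, and 9 rose. H2-T24 was at 1.39 TPM in sham and 6.13 TPM in stroke, per the authors' deposited table (4.42-fold, q = 2.76e-08). H2-Q7, which encodes a Qa-2 molecule, was at 3.11 and 11.5 TPM in the authors' deposited table (3.69-fold, q = 2.85e-06). H2-Q5 and H2-Q6 rose 5.06-fold and 3.17-fold, and H2-T10 rose 3.29-fold, in the authors' deposited table. H2-M3, whose product presents formylated peptides, was at 6.47 TPM in sham and 18.3 TPM in stroke (2.83-fold, q = 0.000795, authors' deposited table). Mr1, which presents vitamin B metabolites to mucosal-associated invariant T cells, rose 3.40-fold, and Hfe, a class I-like regulator of iron uptake, rose 3.47-fold, with means of 8.49 TPM and 29.4 TPM, in the authors' deposited table. H2-Q1 was at the floor of 0.0001 TPM in sham, where the authors' deposited table puts genes that were not detected, and at 2.86 TPM in stroke (q = 6.59e-13), so no fold is given. H2-Q10 was at 0.0728 and 0.279 TPM (q = 0.156, authors' deposited table) and did not pass. The 9 listed genes with a sham mean above the floor had a median fold of 3.47, in the authors' deposited table. H2-Q and H2-T genes share sequence with the heavy chains above and are uncertain singly.

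Of 12 genes of peptide loading and editing 6 were listed, and these 6 rose, with a median of 2.51-fold in the authors' deposited table. Tapbp, which encodes tapasin, the bridge between TAP and the heavy chain, was at 45.6 TPM in sham and 130.1 TPM in stroke, per the authors' deposited table (2.85-fold, q = 3.00e-06). Calr, the chaperone calreticulin, was at 581.0 and 1419 TPM in the authors' deposited table (2.44-fold, q = 0.00445). Pdia3, the disulfide isomerase of the loading complex, was at 140.5 and 362.5 TPM in the authors' deposited table (2.58-fold, q = 0.00763). Erap1, which trims peptides to length, was at 1.57 and 4.57 TPM in the authors' deposited table (2.90-fold, q = 0.0179). Lnpep, an endosomal aminopeptidase, rose 2.22-fold (q = 0.0139) and Sppl2a, an intramembrane protease, 2.39-fold (q = 0.0402), in the authors' deposited table. Calreticulin and Pdia3 also fold other glycoproteins.

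**Figure D3:**
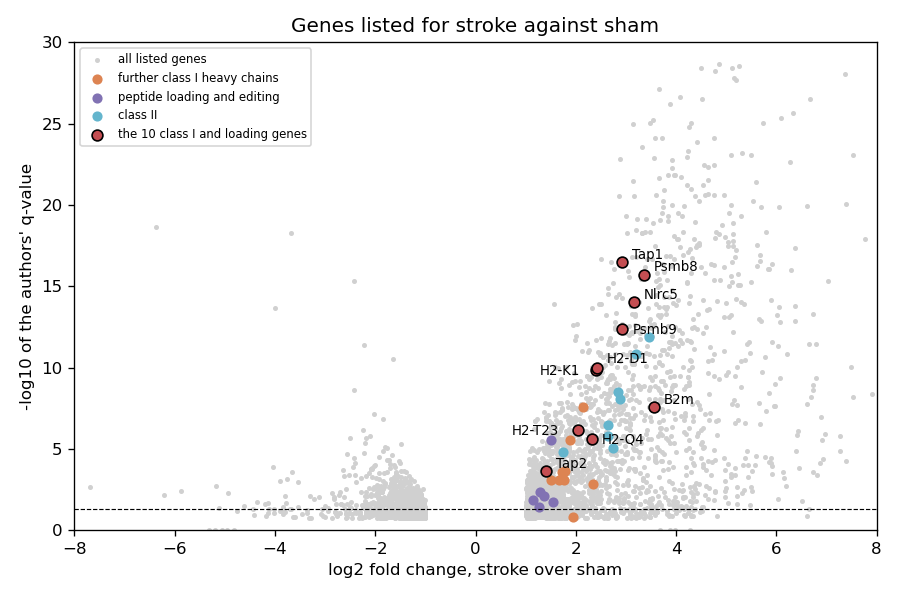
Log2 fold change (x axis, stroke over sham) against -log10 of the authors' q-value (y axis) for genes listed in the authors' table; 227 genes beyond the axes are left out, the dashed line marks a q-value of 0.05, and the gap around 0 is the authors' fold limit. Tap1, Psmb8 and Nlrc5 lie highest of the 10 genes, B2m farthest to the right, and Tap2 lowest.

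Of 27 regulator genes 9 were listed, all higher, and these 9 rose. Irf8, an interferon regulatory factor of myeloid cells, was at 8.68 TPM in sham and 111.8 TPM in stroke, per the authors' deposited table (12.9-fold, q = 8.18e-20). Socs3, which restrains cytokine signalling, rose 4.17-fold (q = 1.50e-09) and Irf7 3.47-fold (q = 1.14e-05) in the authors' deposited table. Irf1, which binds the ISRE of class I promoters, was at 6.77 and 17.7 TPM in the authors' deposited table (2.61-fold, q = 1.88e-05). Of the interferon receptor genes, Ifngr1 rose 3.66-fold and Ifnar2 3.75-fold in the authors' deposited table. The interferon genes Ifng and Ifnb1 were not listed, nor were the X box factor genes Rfx5, Rfxap and Rfxank. Nfya, a subunit of the Y box factor, rose 2.23-fold (q = 0.000266, authors' deposited table). The class II coactivator gene Ciita rose, with means of 0.167 TPM in sham and 0.642 TPM in stroke per the authors' deposited table (q = 0.00336). All 8 class II genes rose, with a median of 6.89-fold in the authors' deposited table. Among them, H2-Ab1 rose 11.04-fold, H2-DMb1 9.17-fold and H2-Eb1 7.14-fold (authors' deposited table). Whether class I and class II folds differ was not tested.

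Of 19 receptor and ligand genes set beside class I, 13 were listed, all higher, and 11 rose. The list is wider than receptors of class I, and for Lilrb4a and Lilr4b no binding to class I is claimed. Pirb, an inhibitory receptor of myeloid cells that binds mouse class I, was at 0.361 TPM in sham and 13.5 TPM in stroke, per the authors' deposited table (q = 1.77e-16). Lilr4b was at 0.118 and 52.2 TPM (q = 3.29e-25), and the name Lilrb4a stands on 2 identifiers, at 0.102 and 32.0 TPM and at 0.805 and 174.1 TPM, in the authors' deposited table. These are near-identical receptor genes and are uncertain singly. Klrd1, which encodes CD94, the partner in the receptor for Qa-1, was at the floor in sham and at 1.10 TPM in stroke (q = 0.000195, authors' deposited table). Of the genes for class I-like ligands of the NKG2D receptor, Raet1d was at 0.0603 and 10.14 TPM (q = 5.34e-05), Raet1e at 0.0525 and 0.591 TPM (q = 0.0264) and Ulbp1 at 0.0132 and 1.37 TPM (q = 6.17e-09) in the authors' deposited table, while H60b and H60c were not listed. The receptor gene itself, Klrk1, was at 0.0253 and 0.312 TPM (q = 0.0733, authors' deposited table) and did not pass. Cd8a was at 0.124 and 0.532 TPM (q = 0.0226) and Cd8b1 at 0.192 and 0.930 TPM (q = 0.0188) in the authors' deposited table. Folds against sham means this near 0 are uncertain in size and are not given.

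Markers of several cell types moved beside these genes, and their part in the results was not tested. All 6 microglia markers rose, from a summed 116.3 TPM in sham to a summed 630.6 TPM in stroke, per the authors' deposited means, with Tmem119, Csf1r and Cx3cr1 at the smallest q-values. Of 10 T cell markers 6 were listed higher and 4 rose, with Cd3d at the floor in sham, and their sum was 1.49 TPM in sham and 7.61 TPM in stroke, per the authors' deposited means. Of 7 natural killer cell markers 3 were listed higher and none rose, at a summed 0.363 and 1.65 TPM in the authors' deposited means, and Ncr1 was not listed. Of 10 markers of infiltrating myeloid cells 5 were listed higher and 4 rose (8.31 and 22.9 TPM summed, authors' deposited means), and of 5 B cell markers Cd79b rose. Of 5 astrocyte markers Gfap and Aqp4 rose, of 6 endothelial markers Cdh5 rose, and no oligodendrocyte marker was listed. Of 5 neuronal markers 4 were listed lower and 3 fell, at a summed 2245 and 932.1 TPM in the authors' deposited means. Of 6 thalamic relay neuron markers 4 fell, among them Slc17a6, which marks the tissue and was at 63.7 TPM in sham and 20.7 TPM in stroke, per the authors' deposited table. The sums cover listed markers only and are 1 value per group.

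Against stroke, mmpp had 1 of the 10 genes listed. In the authors' deposited table B2m was at 2837 TPM in stroke and 1149 TPM in mmpp, a log2 fold change of -1.30, with an unadjusted p of 0.0167 and a q-value of 0.664, so it did not pass adjustment. Of 19616 genes adjusted there, 1.24% were listed higher and 3.58% lower at an unadjusted p under 0.05, and 0.0306% were listed lower with a q-value under 0.05. The mmpp mean of B2m was 4.76 times the sham mean by the authors' deposited means. The tables hold no mmpp value for the other 9 genes, which were not listed for mmpp against stroke. Any of the reasons given for the proteasome genes may apply, and no statement on their level in mmpp can be made.

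None of the 29 further heavy chain genes or the 20 further proteasome genes of the lists was listed for mmpp against stroke. Of the loading and editing genes 1 was listed, Hspa5, an endoplasmic reticulum chaperone, at 242.0 TPM in stroke and 58.6 TPM in mmpp (q = 0.145, authors' deposited table). Of the receptors and ligands, 7 gene names were listed lower and 0 higher, among them Pirb at 13.5 and 2.77 TPM (q = 0.262) and Raet1d at 10.14 and 3.004 TPM (q = 0.726) in the authors' deposited table. Of the Lilrb4a identifiers, the one with 174.1 TPM in stroke was at 18.0 TPM in mmpp and fell (q = 0.0344, authors' deposited table), and the other was at 32.0 and 5.87 TPM (q = 0.263, authors' deposited table). Of 8 class II genes 4 were listed lower, with Cd74, which chaperones class II molecules, at 298.7 and 100.5 TPM (q = 0.471, authors' deposited table). Of 27 regulators Ciita was listed lower (q = 0.769, authors' deposited table). Of 6 microglia markers Sall1 was listed lower, and of 10 T cell markers Cd4 was, and their part in the B2m value was not tested. Both comparisons use the same stroke samples, so values that chance made high there are high in both.

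**Figure D4:**
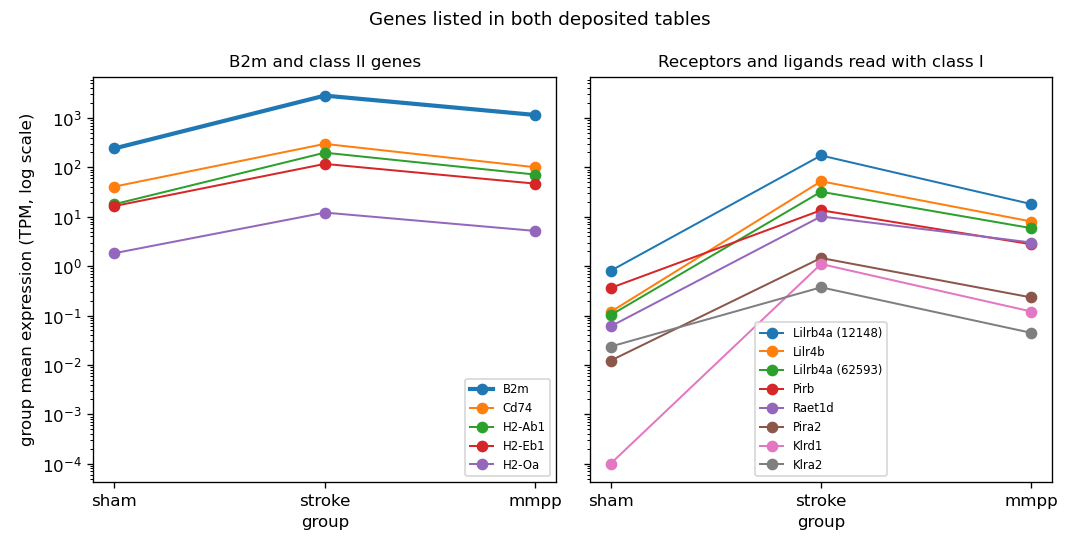
Group mean expression in TPM (y axis, log scale) in sham, stroke and mmpp for B2m and class II genes (left) and for receptors and ligands read with class I (right), for genes listed in both of the authors' tables; lines join the means of 1 gene, numbers after Lilrb4a are the last digits of its identifiers, and Klrd1 is at the floor of 0.0001 TPM in sham. B2m goes from 241.6 to 2837 to 1149 TPM, and the genes shown were selected by being listed in both tables with shared stroke samples, so the common shape is no result.

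The genes whose log2 fold changes in the 2 tables lay nearest to those of B2m, among 627 others listed in both with no mean under 0.1 TPM, were Bin2, Lyl1 and Edem1. Bin2, which encodes a membrane-bending protein of blood cells, was at 4.94, 56.4 and 22.96 TPM in sham, stroke and mmpp in the authors' deposited tables, at a distance of 0.0415. Lyl1, a blood cell transcription factor gene, was at 3.27, 39.6 and 16.5 TPM in the authors' deposited tables (distance 0.0636). Edem1, of endoplasmic reticulum quality control, was at 3.58, 42.9 and 18.1 TPM in the authors' deposited tables (distance 0.0665). The distance is Euclidean over the log2 fold changes and rests on 3 group means per gene, so it says nothing of shared control.

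The authors' own annotation puts 7 of the 10 genes in the KEGG pathway of antigen processing and presentation, leaving out Psmb8, Psmb9 and Nlrc5. Of the 38 genes of that pathway listed for stroke against sham, 34 rose, and 2 fell, the heat shock genes Hspa1a and Hspa1b (authors' deposited table). Of all 4071 genes listed for that comparison, 2012 rose and 701 fell. For mmpp against stroke 14 of its genes were listed, 12 lower and 2 higher, and none had a q-value under 0.05 (authors' deposited table). Of all 1021 genes listed there, 757 were lower and 264 higher. The pathway counts are a description, and no set test was run. In the GENCODE M21 annotation 8 of the 10 genes lie on chromosome 17, in or beside the MHC, while B2m is on chromosome 2 and Nlrc5 on chromosome 8.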

How the data were processed

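RNA of 9 thalamus samples was made into libraries with a SMARTER mRNA kit after TRIzol extraction, per the labels' protocols. Per the submitters' processing notes, the tools were HTSeq 0.6.0, TopHat2 2.0.12 and Bowtie2 2.2.3 and the build was GRCm39, with no role stated. Which program compared the groups was not given in the sources.

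The authors deposited, per the file headers, mean TPM values per group and, for each listed gene, its log2 fold change with p-value and q-value. The deposited log2 fold change differed from the log2 ratio of the deposited TPM means by at most 5.35e-11. The number of genes adjusted was recovered as the smallest that gives whole Benjamini-Hochberg ranks (tolerance 0.001), which held for 95.1% and 98.3% of genes with a q-value of their own. On simulated data it was recovered in 20 of 20 tables. Listed genes with a q-value of 1 (96 and 74) were left out of those shares. The labels name a table of raw counts per library, which was not analysed here, so the foreseen edgeR test was not run. "Rose" and "fell" mean an authors' q-value under 0.05. Whether samples are separate animals is not stated, so the p-values reflect only how these samples vary, which may be technical.

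The members, lists and alternatives were chosen with earlier results of these data known. Named were the 10 genes, every listed gene of the heavy chain, loading and proteasome lists, up to 3 of each other list by q-value, and the 3 genes nearest to a member listed in both tables. One gene of the microglia list and one of the regulator list are not reported here, and the counts and sums of these lists are without them. Markers are named in part, and other genes were chosen after their values were seen. Python 3.11.15 with pandas 2.3.3 was used. Promoter sequences are RefSeq's on GRCm38.p6, which differs from the authors' build, and no coordinates were converted. Motifs were searched in the 250 bases before the start.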

Additional observations from a re-analysis of the deposited data

How the results depend on the processing

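All 10 genes still rose in stroke against sham with a q-value limit of 0.01 or 0.1, and 9 did when a mean of at least 1 TPM in both groups was required, which left out Nlrc5. The genes of the further heavy chain, loading and proteasome lists that rose numbered 15, and 12 and 15 with those limits. For mmpp against stroke the count of 1 listed gene, B2m, became 0 with a q-value under 0.05 and 0 with an unadjusted p under 0.01. The median log2 fold change of the 10 genes, 2.67, became 2.39 with 1 TPM added to the means and 2.84 relative to the summed TPM of unlisted genes, which shifted by -0.17 on the log2 scale when TPM is taken to have the same full sum in each group. None of the 22 member fold changes recomputed in these ways changed sign. With the added TPM only Nlrc5 moved by over 1.5 times. No paired analysis was possible because the files used here hold group means only, and for the same reason the DESeq2, unfiltered and leave-one-out alternatives were not run. The depth is unknown, so no limit of detection can be given.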
